A study of Mus musculus with 5 samples.

Results

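The genes described here are 39 genes of DNA replication and of the passage from G1 into S phase, followed through alpha cells and alpha cell tumors of mice without the glucagon receptor. They were taken by symbol from a list of genes by function, with earlier results of these data known, and all 39 were among the 36529 gene rows of the tables. Single-cell RNA was sequenced from 5 libraries: pancreatic islets of a mouse heterozygous for the glucagon receptor gene Gcgr (1 library), islets of a homozygous Gcgr knockout (1 library) and pancreatic tumors labelled as homozygous Gcgr knockout (3 libraries, from 3 animals by the names in the table, called tumors A, B and C here). The mice were untreated and on standard chow, and no age or strain was given. Wild-type islets were not analysed here. Alpha-like cells were the cells that the authors typed as alpha in the islets and all kept cells of the tumors.

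Before a cell divides, the Mcm2 to Mcm7 helicase is loaded on its DNA during G1 by Cdc6 and its partners, and it is started at the entry to S phase. The E2F transcription factors switch on many genes of this machinery at that point, once cyclin E and Cdk2 have released them from the retinoblastoma protein. Adult alpha cells divide rarely, and the loss of glucagon receptor signalling is known to raise circulating amino acids and to make alpha cells multiply, with tumors at a late age.

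The libraries held 10508498 to 34101553 UMIs (molecules told apart by a random tag added before amplification) in 513 to 2844 cells. Alpha-like cells kept numbered 306 in heterozygous islets, 1525 in homozygous islets and 495, 846 and 1084 in tumors A, B and C. No cell name occurred in more than 1 library (0 names). Median UMIs per alpha-like cell were 10002.5 and 14086 in the islets and 19378.5 to 26091.5 in the tumors. Levels are given as CPM, a gene's UMIs per 1000000 in a cell, averaged over a library's cells, with no division by length because the chemistry tags transcript ends. Gcgr itself was at 2.14 CPM in heterozygous alpha cells, 0 in the homozygous ones and 0, 0.0531 and 0.124 in tumors A, B and C. Glucagon (Gcg) took 324185 CPM ± 43720 (SD, n = 3) in the tumors, beside 331150 and 323637 CPM in the alpha cells of the islets.

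Summed over the 39 genes, the level was 183 CPM in alpha cells of heterozygous islets and 133 CPM in those of homozygous islets, and 260, 188 and 272 CPM in tumors A, B and C (mean 239.9 ± 45.4 SD, n = 3). All tumors were above both islet libraries, tumor B by little. In total 25 of the 39 genes had their level in every tumor above both islet libraries, where 22.3% of all genes with a UMI did. Among the 10173 genes with 5 CPM in 2 libraries, a filter that 19 of the 39 passed, the share was 33.3%. Of the 25, Cdc6, Tk1, Exo1 and Brip1 were at 0 CPM in the heterozygous cells, where a level cannot be lower. For 1 gene, Rpa2, every tumor was below both islets, where 7.03% of all genes were, and for 13 genes the libraries overlapped. More cells with a transcript and more transcripts per cell cannot be told apart in these means.

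**Figure D1:**
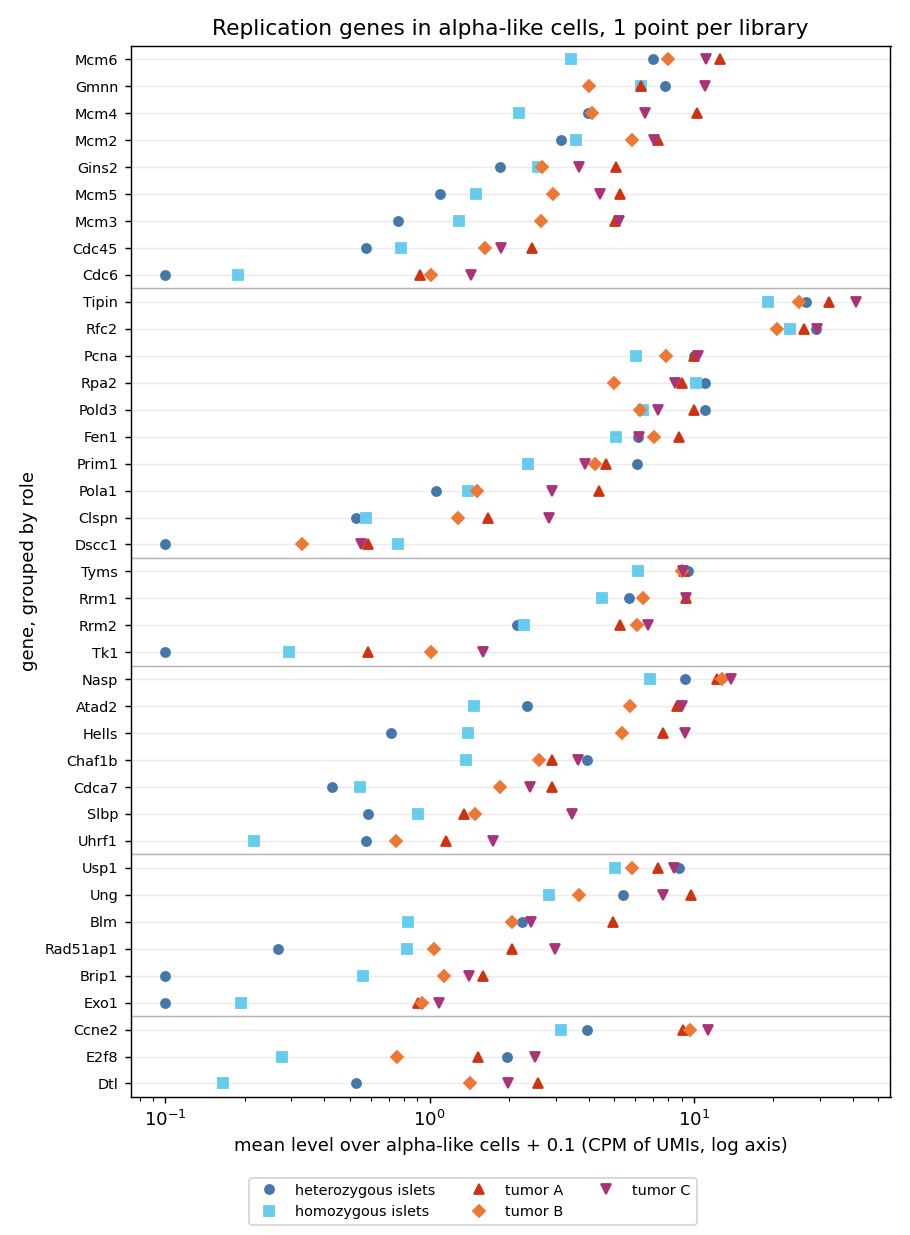
Mean level of each of the 39 genes over alpha-like cells (x axis, CPM + 0.1, log scale), 1 point per library, with genes grouped by role from helicase loading at the top through polymerases and fork, nucleotide supply, chromatin and repair to G1/S control at the bottom. All helicase genes but Gmnn and all chromatin genes but Chaf1b have the tumor points to the right of the islet points, while Rfc2, Pcna, Pold3 and Rpa2 have them mixed or to the left.

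Among genes that load and start the replicative helicase, 8 of 9 had every tumor above both islet libraries. Mcm2, a subunit of the helicase ring, was at 3.05 CPM in the heterozygous and 3.47 CPM in the homozygous islet cells and at 7.24, 5.72 and 7.004 CPM in tumors A, B and C. In what follows, paired islet values are in the order heterozygous, homozygous, and values of 3 tumors in the order A, B, C. Mcm3 stood at 0.661 and 1.19 CPM in the islets and at 4.95, 2.54 and 5.11 CPM in the tumors. In both genes the lowest tumor, B, was still clear of the higher islet library. Mcm4 was at 3.88 and 2.09 CPM in the islets against 10.2, 4.04 and 6.47 CPM, so tumor B all but met the heterozygous library. For Mcm5 the islet levels were 0.998 and 1.40 CPM and the tumor levels 5.16, 2.83 and 4.31 CPM. Mcm6 had 6.89 and 3.33 CPM in the islets and 12.4, 7.87 and 11.1 CPM in the tumors. Cdc6, the loader of the ring, was near the limit of detection, with no UMI in the heterozygous and 0.0876 CPM in the homozygous cells, and 0.824, 0.912 and 1.33 CPM in the tumors. The 1 gene of this group whose libraries overlapped was Gmnn, which encodes geminin, the inhibitor that keeps the helicase from being loaded again after S phase begins, at 7.71 and 6.20 CPM in the islets and 6.21, 3.92 and 10.9 CPM in the tumors.

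The polymerases, the sliding clamp and the fork proteins did not show that pattern, with 3 of 10 genes above both islets in every tumor (Pola1, Fen1 and Clspn). Pcna, the clamp that holds polymerases on DNA, was at 9.96 and 5.94 CPM in the islets and at 9.97, 7.75 and 10.3 CPM in the tumors. Its heterozygous islet level lay within the tumor range. Prim1, the primase that begins each Okazaki fragment, had 6.01 CPM in heterozygous cells, above all the tumors (4.54, 4.12 and 3.77 CPM), and 2.25 CPM in homozygous cells, below them. Tipin and Rfc2, a fork protection factor and a clamp loader subunit, had the most UMIs of the 39 genes. Tipin was at 26.4 and 19.1 CPM in the islets and 32.4, 25.0 and 41.0 CPM in the tumors. Rfc2 was at 28.9 and 23.0 CPM against 26.0, 20.6 and 29.3 CPM, with tumor B below both islets. Rpa2, a subunit of the complex that coats single-stranded DNA, was at 10.9 and 10.1 CPM in the islets and at 8.94, 4.88 and 8.40 CPM in the tumors.

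Of the enzymes that supply nucleotides, ribonucleotide reductase stood apart from thymidylate synthase. Rrm2, its S phase subunit, was at 2.05 and 2.19 CPM in the islets and at 5.17, 5.99 and 6.59 CPM in the tumors, and Rrm1, the large subunit, at 5.57 and 4.41 against 9.22, 6.31 and 9.22 CPM. The islet and tumor values were apart for both subunits. Tyms, thymidylate synthase, was at 9.41 and 6.04 CPM in the islets and at 9.12, 8.92 and 8.98 CPM in the tumors, so the heterozygous library was above all of them. A processed copy of Tyms has a row of its own in the tables, so how the reads were split between them is uncertain.

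The genes for chromatin made behind the fork had 6 of 7 members above both islets in every tumor, Chaf1b being the other. Hells, a chromatin remodeller of dividing cells, was at 0.616 and 1.30 CPM in the islets and at 7.58, 5.23 and 9.21 CPM in the tumors. Atad2, a bromodomain ATPase, was at 2.23 and 1.37 CPM against 8.52, 5.62 and 8.93 CPM. In both genes the lowest tumor was well above the higher islet library. Nasp, a histone chaperone, was at 9.16 and 6.72 CPM in the islets and 12.1, 12.7 and 13.8 CPM in the tumors. Of the 6 repair genes 3 were above in every tumor (Exo1, Brip1 and Rad51ap1), all under 3 CPM in every library.

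The 3 genes of G1/S control split. Ccne2, which encodes cyclin E2, the partner of Cdk2, was at 3.86 and 3.04 CPM in the islets and at 9.01, 9.58 and 11.2 CPM in the tumors, and Dtl, part of a ubiquitin ligase that acts on clamp-bound proteins, at 0.427 and 0.0659 against 2.48, 1.32 and 1.87 CPM. Both had islets and tumors apart. E2f8, an E2F factor that represses, was at 1.87 CPM in heterozygous cells, within the tumor values of 1.43, 0.653 and 2.41 CPM, and at 0.176 CPM in homozygous cells.

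None of the 39 genes passed the test across all genes. With 5 CPM in 2 libraries required, 19 of them were tested, and limma on log2(CPM + 1) called 0 higher and 0 lower at an adjusted p of 0.05, where it called 2.08% of 10173 tested genes higher and 0.138% lower. Unadjusted p was under 0.05 for 7 of the 19, where it was for 21.2% of all tested genes. Of the 19, 6 passed the filter through the tumors only (Mcm2, Mcm4, Rrm2, Hells, Atad2 and Ccne2), and a difference was built into their selection. The median of all tested genes was 0.24 higher in tumors on the log2 scale, and differences below are relative to it. The largest were those of Hells (1.84 ± 0.44 SE, limma adjusted p = 0.0587), Atad2 (1.39 ± 0.39, adjusted p = 0.0805) and Ccne2 (1.06 ± 0.30, adjusted p = 0.0750). Rrm2 differed by 0.91 ± 0.38 (limma adjusted p = 0.144) and Mcm6 by 0.71 ± 0.36 (adjusted p = 0.189). Not set against the median gene, Mcm6 moved from 0.95 to 0.52 without the homozygous library and to 1.38 without the heterozygous one, and Rrm2 from 1.15 to 0.58 without cluster 2 of tumor C. Pcna was at -0.0026 ± 0.31 and Rpa2 at -0.73 ± 0.32 (limma adjusted p = 0.706 and 0.428).

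The count models split on these genes. DESeq2 on summed UMIs called Hells, Atad2 and Ccne2 higher (3 of 19 members, 3.88% of all genes higher and 2.6% lower, adjusted p = 0.00204, 0.00444 and 0.0113), edgeR with the same filter called 0 members (0.167% of all genes higher and 0.00983% lower, 5 members at an unadjusted p under 0.05), and edgeR with no filter called those 3 and Dtl (4 of 39, with 2.41% of all genes higher and 1.6% lower). limma on CPM of the pooled UMIs called Hells and Ccne2 (2 of 20, with 2.14% of all genes higher and 0.109% lower). Over all genes the split between higher and lower calls also moved, from 212 and 14 in limma to 395 and 264 in DESeq2, 593 and 394 in edgeR with no filter, 49 and 10 with hormone transcripts left out of the totals, and 52 and 22 without tumor C. Hells lies on chromosome 19 (38930262 to 38970470, GRCm38), Atad2 on chromosome 15 (58094044 to 58135525) and Ccne2 on chromosome 4 (11190433 to 11204779). The annotation of Ccne2 overlaps that of Ints8, as 17 of the 39 genes overlap some other gene, and the sources used here do not say whether counting used strand.

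Of 52 further replication genes on a list of their own, such as the origin recognition complex, the Gins complex and polymerase epsilon, 28 were tested and 0 passed in limma, with 6 at an unadjusted p under 0.05. DESeq2 called 2 of them and edgeR with no filter 4. Their summed level was 470 and 391 CPM in the islets and 602, 518 and 613 CPM in the tumors, with all tumors above both islets.

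The scale mattered to the summed level. Transcripts of 8 hormones and secreted products took 48.1% and 56.5% of the UMIs of heterozygous and homozygous alpha cells and 42.5%, 41.2% and 41.1% in tumors A, B and C. With these left out of the totals, the summed level was 336 and 296 CPM in the islets and 444, 311 and 440 CPM in the tumors, so tumor B lay between the islets. On that scale 20 of the 39 genes had every tumor above both islets, all of them among the 25 above (15% of all genes), and 2 were below (Rpa2 and Rfc2, 14.2% of all genes). Without the 697 cells of cluster 2 in tumor C, 16 were above (20.2% of all genes) and Rpa2 was below (7.37%). UMIs of all 7 endothelial markers were found in the alpha-like cells of every library, at a summed 57.2 and 25.2 CPM in the islets and 42.7, 4.21 and 49.5 CPM in tumors A, B and C. The 6 macrophage markers were at 91.9 and 40.8 CPM in the islets and 130, 30.2 and 126 CPM in the tumors. Tumor B, with the lowest summed replication level of the tumors, was also lowest for both of these lists. Stellate markers were at 28.0 and 24.0 CPM in the islets and 10.1, 1.42 and 29.9 CPM in the tumors, and lymphocyte markers at 1.63 and 0.117 against 1.47, 1.20 and 22.7 CPM. The part of these markers in the result was not tested.

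Promoters on GRCm38.p6 were at hand for 29 of the 39 genes (250 bases before to 50 after the start given for the promoter). The 2 letter strings searched for E2F were TTTCCCGC and TTTGGCGC, on both strands. One or the other stood in the promoters of 9 of the 29 genes (31.0%; Cdc6, Cdca7, Dtl, Hells, Mcm3, Mcm5, Mcm6, Pola1 and Pold3), against 1.56% of all 32851 promoters of that length. CCAAT, the letters of the NF-Y box, stood in 20 of 29 (69.0%) against 37.4%, and the CHR strings TTTGAA and TTCGAA in 5 of 29 (17.2%) against 19.2%. Median GC content was 58.0% in the member promoters and 52.7% in all. Stretches of 140 bases before 4 gene starts are printed because they hold such a match and because all 4 genes were above both islets in every tumor. Capitals mark the E2F letters, on either strand, and the sequences run 5′ to 3′ on the strand of the gene. Mcm6 (chr1:128359706-128359845, minus strand) has 2 matches, which begin 110 and 47 bases before the gene start. Dtl (chr1:191575545-191575684, minus strand) has its match 8 bases before the start, Cdca7 (chr2:72476047-72476186, plus strand) 71 bases and Mcm5 (chr8:75109328-75109467, plus strand) 149 bases. In Cdca7 and Mcm5 the start given for the promoter lies inside the annotated gene. The stretch shown ends where that gene begins, 32 bases before the promoter's start in Cdca7 and 41 bases before it in Mcm5.
Mcm6: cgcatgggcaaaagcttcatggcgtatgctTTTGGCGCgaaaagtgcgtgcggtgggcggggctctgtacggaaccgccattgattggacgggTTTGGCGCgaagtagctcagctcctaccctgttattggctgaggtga
Dtl: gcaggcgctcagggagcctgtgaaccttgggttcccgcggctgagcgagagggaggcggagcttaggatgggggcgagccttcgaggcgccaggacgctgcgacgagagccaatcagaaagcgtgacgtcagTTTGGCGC
Cdca7: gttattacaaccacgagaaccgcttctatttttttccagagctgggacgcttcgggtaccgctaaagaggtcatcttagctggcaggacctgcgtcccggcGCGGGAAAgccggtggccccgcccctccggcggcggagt
Mcm5: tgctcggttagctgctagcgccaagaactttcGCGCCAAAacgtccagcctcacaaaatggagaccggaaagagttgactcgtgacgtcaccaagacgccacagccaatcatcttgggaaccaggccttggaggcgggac
A match is a run of letters only, and no binding was measured.

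To see where in the tumors these transcripts were, tumor cells were divided by genes of the later cell cycle. Each cell was thinned to 5000 UMIs, and it was called G2/M-positive when it held UMIs of 2 or more of 31 genes of G2 and mitosis such as Mki67 and Top2a, none of which is among the 39. That gave 43 of 479 cells in tumor A (8.98%), 58 of 842 in tumor B (6.89%) and 96 of 1068 in tumor C (8.99%). Among islet alpha cells 2 of 259 heterozygous cells (0.772%) and 11 of 1427 homozygous cells (0.771%) were positive. Of the tumor cells 55 held exactly 2 of the genes and 357 held 1, so a part of both classes lies near the threshold. Depth was alike in positive and negative cells, with median UMIs of 20047 and 20160.5 in tumor A, 25580.5 and 26207.5 in tumor B and 21832 and 19374 in tumor C. Mitochondrial UMIs were 1.57% and 1.29%, 1.25% and 1.24%, and 2.38% and 2.09% in the same order.

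The positive cells carried far more replication transcripts. The summed level of the 39 genes was 749, 773 and 1078 CPM in the positive cells of tumors A, B and C and 215, 145 and 189 CPM in the negative ones, a ratio of 3.49, 5.32 and 5.71. In the comparison within libraries, limma called 32 members higher and 0 lower of the 35 that passed the filter, where it called 9.9% of 10814 genes higher and 1.29% lower. For 20 of the 35 the filter was passed only through the positive cells, so their difference was built in. Of the 15 with 5 CPM in the negative cells of 2 libraries 13 were called (7.74% of such genes), and with no filter 26 of 39 were called higher and 0 lower (1.85% and 0.0674% of all genes). In all 3 libraries 34 of the 39 were higher in the positive cells, where 16.9% of all genes were. All genes together gave 1071 higher and 140 lower calls, which became 612 and 788 when the libraries were scaled by the trimmed mean of M values, with 32 members called higher under either scaling.

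**Figure D2:**
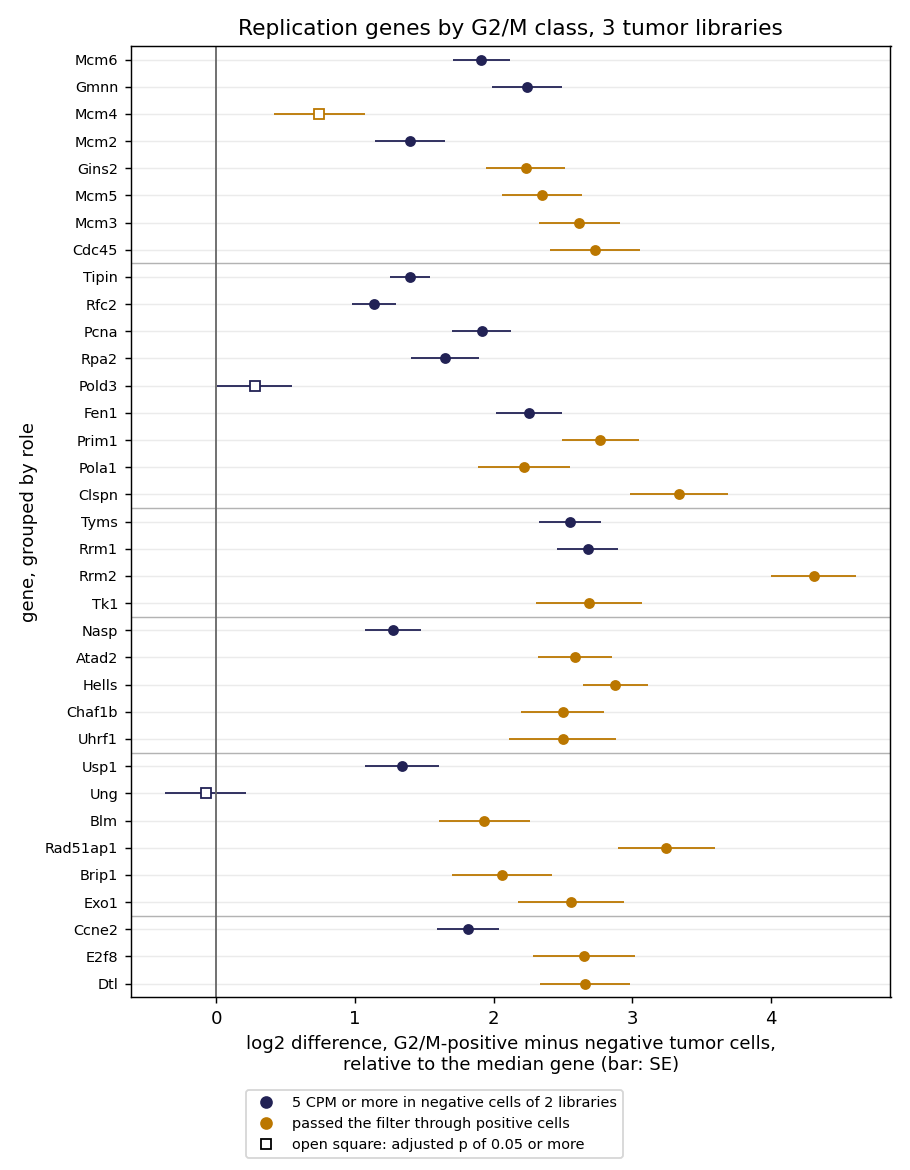
Difference between G2/M-positive and G2/M-negative tumor cells for the 35 genes that passed the filter (x axis, log2(CPM + 1), relative to the median gene, bars are SE from the fit over 3 libraries), grouped by role. Rrm2, which passed the filter only through the positive cells, lies farthest right at 4.31. The open squares of Mcm4, Pold3 and Ung mark the 3 genes that were not called.

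Nucleotide supply held the largest difference. Rrm2 was at 30.6, 72.3 and 57.6 CPM in the positive cells of tumors A, B and C and at 2.85, 1.11 and 0.826 CPM in the negative ones, a difference of 4.31 ± 0.31 (SE, log2, relative to the median gene, limma adjusted p = 8e-12). Rrm2 passed the filter only through the positive cells, so a difference was built into its selection. With no filter it was called as well (limma adjusted p = 0.00784). Rrm1 was at 37.4, 38.9 and 47.1 CPM against 6.78, 3.93 and 5.22 CPM (2.68 ± 0.22, limma adjusted p = 1.4e-10). Tyms was at 32.0, 54.8 and 43.8 CPM against 7.19, 5.57 and 5.48 CPM (2.55 ± 0.22). For each of these 3 genes the lowest positive value was above the highest negative one.

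Of the helicase genes 7 of the 8 that passed the filter were called, where 9.9% of all genes were called higher. Mcm3, Mcm4, Mcm5, Cdc45 and Gins2 passed it only through the positive cells, so a difference was built into their selection. With no filter 7 of the 9 helicase genes were called (1.85% of all genes higher). Mcm6 was at 47.9, 29.6 and 31.2 CPM in positive and 9.41, 6.31 and 9.06 CPM in negative cells (1.91 ± 0.21, limma adjusted p = 2.62e-08). Mcm3 and Mcm5 differed by 2.62 ± 0.29 and 2.35 ± 0.29. Mcm2 differed less, by 1.40 ± 0.25, with 16.2, 18.6 and 17.3 CPM in positive cells and 6.62, 4.80 and 5.52 CPM in negative ones. It lost the call when cells were thinned to 5000 UMIs before the levels were taken, with a difference of 1.29 ± 0.47 (limma adjusted p = 0.225). Without cluster 2 it was not called either, at 0.74 not set against the median gene in place of 1.47 (limma adjusted p = 0.496). Mcm4 was not called (0.74 ± 0.33, limma adjusted p = 0.118). It was at 7.63 CPM in positive and 10.8 CPM in negative cells of tumor A, but at 7.85 and 22.0 against 3.78 and 4.67 CPM in tumors B and C, and without tumor A it was called (adjusted p = 5.41e-05). Not set against the median gene, its log2 difference was 0.82 over the 3 tumors, 1.46 without tumor A, 0.78 without tumor B and 0.22 without tumor C (limma adjusted p = 0.851). Gmnn was at 18.9, 22.4 and 44.7 CPM in positive and 5.18, 2.57 and 6.71 CPM in negative cells (2.24 ± 0.25).

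At the fork 8 of 9 tested genes were called, where 9.9% of all genes were called higher. Prim1, Pola1 and Clspn passed the filter only through the positive cells, so a difference was built into their selection. With no filter 7 of the 10 fork genes were called (1.85% of all genes higher). Pcna was at 30.6, 29.2 and 37.3 CPM against 8.30, 6.21 and 7.62 CPM (1.91 ± 0.21, limma adjusted p = 4.03e-08), and Prim1 at 23.7, 31.9 and 16.9 against 2.82, 2.08 and 2.33 CPM (2.77 ± 0.28). Rfc2 and Tipin, the genes with the most UMIs, differed by 1.13 ± 0.16 and 1.40 ± 0.14. Fen1, the nuclease that trims Okazaki fragments, and Rpa2 differed by 2.26 ± 0.24 and 1.65 ± 0.24. Pold3, a subunit of polymerase delta, was at 8.16, 8.51 and 12.4 CPM in positive and 9.42, 6.03 and 6.64 CPM in negative cells and was not called (0.27 ± 0.27, limma adjusted p = 0.497).

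Of the chromatin genes all 5 that passed the filter were called, but Hells (2.88 ± 0.23), Atad2 (2.59 ± 0.27), Chaf1b and Uhrf1 passed it only through the positive cells. With no filter 4 of the 7 chromatin genes were called, Hells, Atad2 and Nasp among them (limma adjusted p = 0.0031, 0.0204 and 0.0156). Nasp, which was above the filter in the negative cells too, differed by 1.27 ± 0.20. Of the repair genes 5 of 6 were called, but Exo1, Blm, Brip1 and Rad51ap1 passed the filter only through the positive cells, and 2 of 6 were called with no filter. Usp1, a deubiquitinase of the crosslink repair pathway, differed by 1.34 ± 0.27 and was not called with no filter (limma adjusted p = 0.0984). Ung, which removes uracil from DNA, was at 10.7, 2.84 and 7.33 CPM in positive and 8.81, 3.65 and 7.18 CPM in negative cells and did not pass (-0.08 ± 0.29, limma adjusted p = 0.999). Ccne2 was at 27.1, 25.3 and 48.3 CPM against 7.56, 8.47 and 7.73 CPM (1.82 ± 0.22, limma adjusted p = 2.65e-07), and E2f8 at 6.32, 7.15 and 19.3 against 1.00, 0.175 and 0.775 CPM (2.65 ± 0.37). E2f8 too passed the filter only through the positive cells.

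The call count depended on depth. With every cell thinned to 5000 UMIs 18 of 33 tested members were called higher and 0 lower (2.51% and 0.102% of all genes). Among those no longer called were Ccne2 (1.46 ± 0.52 when thinned, limma adjusted p = 0.218), Nasp (1.03 ± 0.35, adjusted p = 0.181), Usp1 (1.87 ± 0.46, adjusted p = 0.0504) and Gmnn (1.36 ± 0.55, adjusted p = 0.291). The SE of each was larger than before thinning, and of these 4 genes Gmnn had lost the most in size. With no filter on low values E2f8 just missed (adjusted p = 0.0506). With 3 libraries limma takes much of each variance from all genes, so a small p does not show that the 3 differences were alike. Of the further replication genes 37 of 45 tested were called higher and 0 lower. The macrophage markers were at a summed 142, 31.3 and 237 CPM in positive cells of tumors A, B and C and at 125, 29.7 and 116 CPM in negative ones, and their part in the result was not tested. The endothelial markers were at 51.8, 6.15 and 42.5 CPM against 40.8, 3.82 and 50.3 CPM.

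Positive cells held 8.57%, 6.67% and 9.66% of the UMIs of tumors A, B and C and 25.2%, 28.6% and 38.3% of the UMIs of the 39 genes. Gene by gene, over the 3 tumors, the share ran from 9.67% for Ung (32 of 331 UMIs) and 12.1% for Pold3 to 79.3% for Rrm2 (268 of 338 UMIs). Mcm2, Mcm6 and Pcna had 23.5%, 27.9% and 28.6% of their UMIs there, and Ccne2 29.5%. Higher shares were found for Tyms (40.8%), Rrm1 (45.5%), Hells (47.5%) and E2f8 (67.5%). The genes thus ran from a share near that of all UMIs to one several times as high. Clspn (75.7%), Rad51ap1 (75.9%) and Tk1 (74.6%), named here after their values were seen, came nearest to Rrm2.

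**Figure D3:**
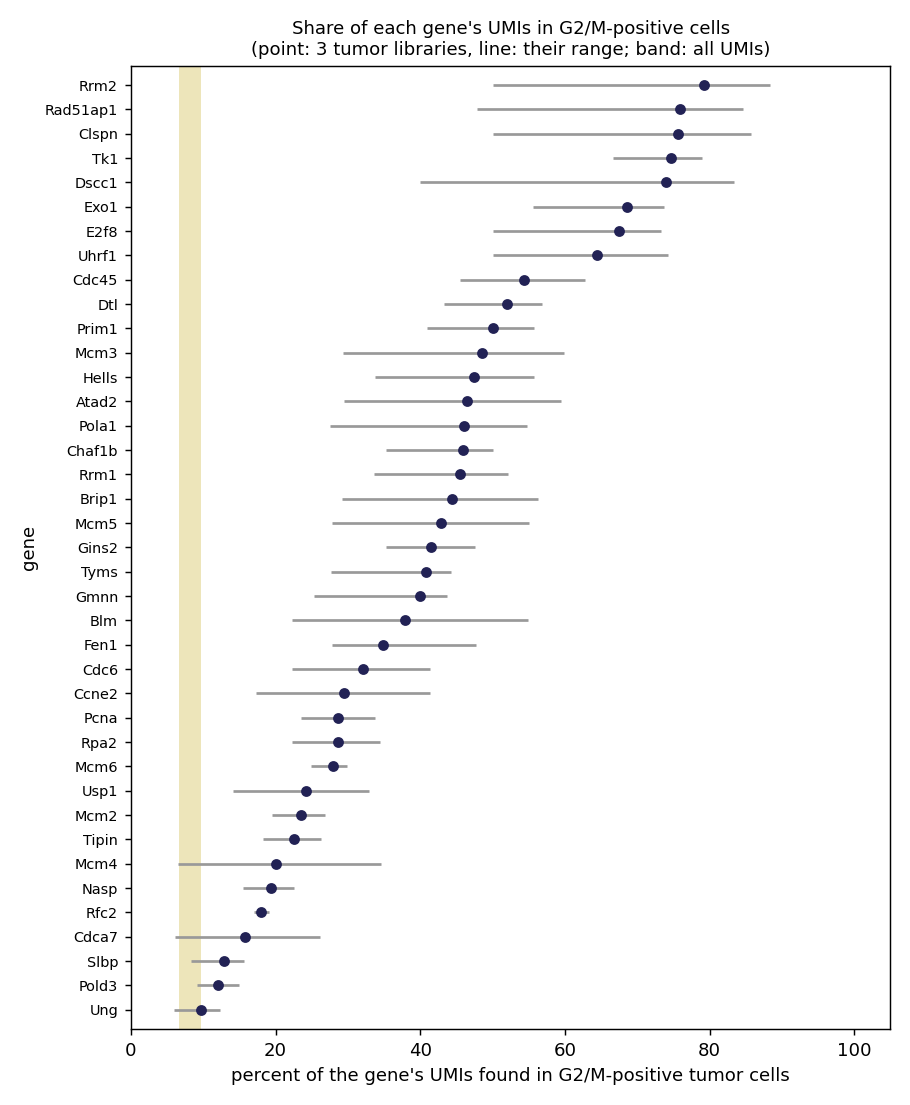
Percent of each gene's UMIs that fell in G2/M-positive tumor cells (x axis), for the 39 genes in order of that share; points pool the 3 tumors and lines span them, and the band from 6.67% to 9.66% is the share of all UMIs. Ung touches the band, and Rrm2 is highest at 79.3%.

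Leaving the G2/M-positive cells out of every library brought the summed level to 169 and 124 CPM in the islets and to 214, 145 and 193 CPM in tumors A, B and C. Tumor B was then below the heterozygous islets. In this setting 19 of the 39 genes had every tumor above both islets (21.3% of all genes), 18 of them among the 25 found with all cells. The helicase genes Mcm2, Mcm3, Mcm5, Mcm6, Cdc6 and Cdc45 were included. Rrm2, Rrm1 and Mcm4 were no longer among the 19 genes. Rpa2 was still below. Of the 19, Cdc6, Cdc45, Clspn, Tk1, Uhrf1, Exo1, Brip1 and Dtl were at 0 CPM in the heterozygous cells, where a level cannot be lower. Of the 15 members that passed the limma filter without the positive cells, 9 lay below the median gene. The median of the 15 was -0.24 on the log2 scale, relative to that gene.

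A second view counted, in each cell thinned to 5000 UMIs, how many of the 39 genes had a UMI. Cells with 6 or more were 15 of 479 in tumor A (3.13%, exact 95% interval 1.76% to 5.11%), 13 of 842 in tumor B (1.54%, 0.825% to 2.63%) and 42 of 1068 in tumor C (3.93%, 2.85% to 5.28%). Among the alpha cells of the islets there were 2 of 259 heterozygous ones (0.772%, 0.0937% to 2.76%) and 8 of 1427 homozygous ones (0.561%, 0.242% to 1.10%). The interval of the heterozygous library overlapped those of tumors A and B but ended below that of tumor C, and the interval of the homozygous library overlapped that of tumor B and ended below those of tumors A and C. Beta cells, which should hold few dividing cells, had 0 of 680 and 0 of 424, which allows shares of up to 0.441% and 0.708% by 3 counts of the total (exact upper limits 0.541% and 0.866%). By the G2/M genes, 4 of the 680 heterozygous beta cells (0.588%) and 0 of the 424 homozygous ones were positive. The intervals cover counting error only. With no thinning the shares were 18.2%, 13.7% and 14.3% in the tumors and 1.96% and 2.03% in the alpha cells of the islets, which were shallower. Beta cells then had 3.35% in heterozygous and 0% in homozygous islets. Hormone transcripts took 71.4% and 71.3% of beta cell UMIs, so a beta cell thinned to 5000 UMIs kept fewer UMIs of other genes than an alpha cell. In the tumors 20 cells had 5 of the genes and 13 had 6.

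**Figure D4:**
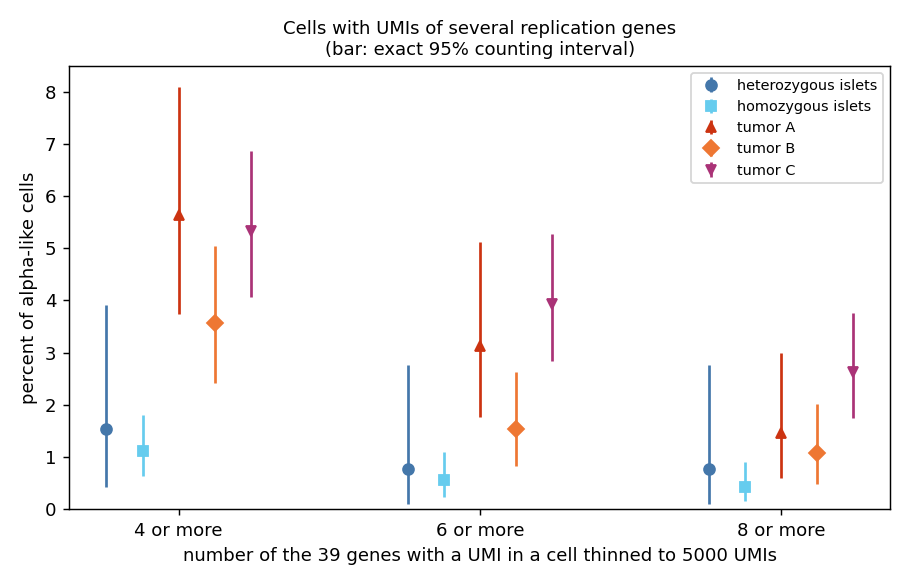
Percent of alpha-like cells (y axis) with UMIs of at least 4, 6 or 8 of the 39 genes after thinning to 5000 UMIs, by library, with exact 95% counting intervals. At 6 genes the tumors sit at 1.54% to 3.93% and the islets at 0.561% and 0.772%, and the heterozygous interval is wide because it rests on 259 cells.

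Most of the tumor cells with 6 or more of the genes were also G2/M-positive, 50 of 70 over the 3 tumors, and 20 were not. A further 147 cells were positive for G2/M genes only. These classes were cut by the 39 genes themselves, so the following is a description. Pooled over tumors, Rrm2 was at 23.3 CPM in the 20 cells below the G2/M threshold and at 159 CPM in the 50 cells with both. E2f8 was at 6.35 and 39.5 CPM in the same classes. Mcm2 was at 61.3 and 52.9 CPM, Mcm4 at 42.3 and 42.0 CPM, Mcm6 at 110 and 85.7 CPM and Cdc6 at 12.7 and 14.3 CPM. Other helicase genes were lower in the 20 cells, with Cdc45 at 10.6 and 33.6 CPM, Mcm3 at 44.4 and 78.1 CPM, Gmnn at 65.6 and 105.04 CPM and Mcm5 at 50.8 and 68.9 CPM. For each helicase gene named here, the exact counting intervals of the 20 and the 50 cells overlapped. For Mcm6 they were 82.2 to 144 CPM in the 20 cells and 69.9 to 104 CPM in the 50. For Cdc45, with 5 UMIs in the 20 cells, they were 3.43 to 24.7 and 24.0 to 45.8 CPM. Tumor C gave 9 of the 20 cells and 33 of the 50. Whether the helicase genes moved as a group between these classes could therefore not be read. In the 147 cells with G2/M genes only, Cdc6 was at 0.306 CPM, Mcm2 at 7.03 CPM and Rrm2 at 24.1 CPM.

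Within tumor C the authors' clusters 2 and 4 differed in the replication genes. The summed level was 335 CPM over the 697 cells of cluster 2 and 157 CPM over the 385 cells of cluster 4, and 39 of 687 and 3 of 381 cells held 6 or more of the genes. All 39 genes were higher in cluster 2, by 1.27 to 9.73 times, where 64% of 15420 genes with 10 or more UMIs were, and for 29 the exact intervals were apart, where they were for 21.5% of genes (8.58% in the other direction, 0 members). The median ratio over those genes was 1.12. With hormone transcripts left out of the totals all 39 were still higher (48.8% of genes), 19 of them with intervals apart (12.4% of genes, and 14.3% in the other direction with 0 members), and the median ratio was 0.991. Clusters were made from all genes, so this is no test. Hormone transcripts took 38.3% of UMIs in cluster 2 and 45.6% in cluster 4, and with these left out the sums were 529 and 279 CPM. Tumor B fell in cluster 1 (844 of 846 cells, 188 CPM) and tumor A in cluster 3 (493 of 495 cells, 260 CPM). Among homozygous alpha cells, cluster 2.1 had 8 cells with 6 or more of the genes among 905, and cluster 2.2 had 0 among 513.

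Prim1 lies on distal chromosome 10 (128015215 to 128030030, GRCm38), near Cdk4 (127063535 to 127067288), the kinase of cyclin D, which was at 1838 CPM in tumor C and at 75.3 to 152 CPM in the other libraries. In cluster 2 of tumor C, Cdk4 stood at 2765 CPM, against 212 CPM in cluster 4. By pooled UMIs, the measure used for Cdk4 by cluster too, Prim1 was at 5.03 CPM in cluster 2 (exact 95% interval 3.90 to 6.37) and 2.19 CPM in cluster 4 (1.30 to 3.46), beside 4.38 CPM in cluster 3 of tumor A and 4.21 CPM in cluster 1 of tumor B. Timeless, the partner of Tipin, farther along the same chromosome (128232063 to 128252941), was at 1.33 and 1.09 CPM in the 2 clusters. Neither gene was at a level in tumor C outside the range of the other libraries.

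Across the other islet cell types the summed level, averaged over cells, was lowest in beta cells, at 93.0 CPM in heterozygous and 92.4 CPM in homozygous islets, and 99.4 CPM in PP cells. Delta cells were at 223 and 167 CPM. Endothelial cells were at 473 and 458 CPM, macrophages at 327 CPM, and stellate cells at 235 and 258 CPM. The 86 cells the authors called Unknown2 were highest by this mean with 536 CPM. Their median cell was at 279 CPM, below the median endothelial cell at 419 and 401 CPM. Beta, PP and delta cells gave 71.4%, 69.7% and 39.8% to 53.7% of their UMIs to the 8 hormone and secreted transcripts, endothelial cells 4.44% to 5.44%. With those left out of the totals, beta cells were at 325 and 315 CPM, PP cells at 323 CPM and delta cells at 365 and 343 CPM, close to the 336 and 296 CPM of alpha cells, and endothelial cells at 502 and 482 CPM. Averaged over cells on that scale, beta cells were below alpha cells in heterozygous islets and above them in homozygous islets. By pooled UMIs beta cells were at 335 and 301 CPM and alpha cells at 338 and 301 CPM, so the order in homozygous islets was not kept. Endothelial cells were above alpha and beta cells on either scale. Endothelial cells had median UMIs of 3587 and 2061, and with few cells above 5000 UMIs (67 and 17) their share of cells with 6 or more genes could not be read. Their leading genes were Tipin (51.5 CPM), Usp1 (48.0 CPM) and Rfc2 (46.8 CPM) in the heterozygous islets, followed by Mcm6 (38.6 CPM).

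**Figure D5:**
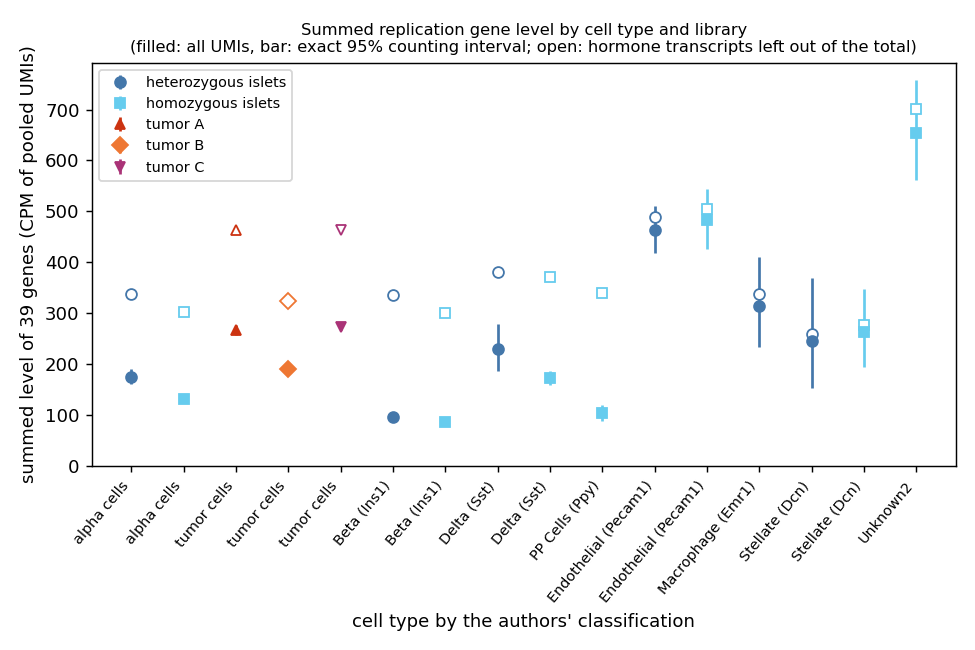
Summed level of the 39 genes (y axis, CPM of pooled UMIs) by the authors' cell type and library; filled points use all UMIs with exact 95% counting intervals, and open points leave hormone transcripts out of the total. The filled points of beta and PP cells are lowest and move to the level of alpha cells when hormone transcripts are left out.

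Between the islet genotypes the 39 genes had ratios on both sides of 1. With 1 library each there is no test. The summed UMIs gave a homozygous to heterozygous ratio of 0.748 in alpha cells (exact 95% interval 0.683 to 0.820), which weighs the genes with the most UMIs. With hormone transcripts left out of the totals the ratio of sums was 0.891. Gene by gene, the median ratio was 0.937 over the 33 members with 10 or more UMIs, with 17 of them under 1. Over 14886 genes with 10 or more UMIs the median ratio was 0.765. Of the 33 members with 10 or more UMIs 0 had an interval beyond 1.5-fold in either direction, where 11.1% of genes were lower and 1.79% higher by that rule. E2f8, with 5 and 4 UMIs and so under that minimum, had a ratio of 0.116 (0.0230 to 0.539). Pcna had a ratio of 0.613 (0.412 to 0.939), Mcm6 0.459 (0.289 to 0.751), Mcm2 1.24 (0.621 to 2.82) and Rrm2 1.36 (0.545 to 4.39).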

How the data were processed

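The members and gene lists were chosen with earlier results of these data known. Per the file headers, the authors deposited normalized UMIs, a signal: a cell's UMIs divided by its total and multiplied by a constant (9936 in the islet tables, 12219 in the tumor table). The cell totals are counts, per the file headers. Per the submitters' processing notes, CASAVA 1.8, bcl2fastq 2.17 and GSNAP were used with GRCm38, in roles the sources used here do not give. The recovery of whole UMIs undid that scaling (100.0% of values whole within 0.01). CPM used the recovered cell sum, which was 1.01 to 1.03 times the authors' total. The names in the tumor table do not tie tumors A, B and C to the numbered tumor labels. All deposited cells had 1000 UMIs, 500 genes and at most 20% mitochondrial UMIs. Scrublet (in scanpy 1.11.5, expected rate 0.06) removed 8, 1, 18, 9 and 15 doublets.

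The main test was limma 3.58.1 (R 4.3.3, trended prior variance) on log2(mean CPM + 1) per library over all genes with 5 CPM in 2 libraries, with Benjamini-Hochberg adjustment at 0.05. The islet arm mixes the genotypes. For G2/M classes, library was a block, because both classes come from the same library, and each class needed 10 cells. The limma p-values rest on the spread between these libraries, with much of each variance taken from all genes. In the tumor comparison the spread within the islet arm is the difference between genotypes with 1 library each. In the G2/M comparison the spread is that of the differences within libraries. Fold changes on this scale understate those of low genes. edgeR 4.0.16 and DESeq2 1.42.0 on summed UMIs were alternatives: edgeR called 17 genes higher and 1 lower in tumors. Genotypes were compared by ratios with exact 95% intervals. Named were all members past the threshold in the tumor comparison, those past it in the G2/M comparison among the 20 highest by mean, and Pcna, Mcm2 to Mcm6, Tyms, Rrm1, Rrm2, Cdc6, Ccne2, E2f8 and Prim1; other members in the text were chosen after their values were seen. On simulated counts the limma fit recovered 46 of 100 genes changed by 2-fold and 98 of 98 by 4-fold in the tumor design (9961 genes, 11 false calls), and 82 of 100 and 100 of 100 in the G2/M design (10547 genes, 23 false calls). The changed genes were drawn from those at 10 CPM or more, with a single dispersion for all genes of a design. Most members were lower than that on average, so these rates do not cover them.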

Additional observations from a re-analysis of the deposited data

How the results depend on the processing

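No member was called in the tumor comparison by limma under other pseudocounts, filters, trimmed mean scaling, hormone transcripts left out, doublets kept, clusters 2 or 4 left out, G2/M-positive cells left out, each library left out in turn (0 to 0 members) or, as an alternative chosen after seeing the data, CPM by the authors' cell totals. edgeR with no filter called 4, DESeq2 3 and limma on pooled CPM 2. No paired analysis was possible because the tumor and islet libraries share no animal, with 3 tumors against 1 library of each islet genotype. On the log2 scale, not set against the median gene, Pcna and Tyms turned from 0.24 and 0.23 to -0.025 and -0.025 with hormone transcripts left out and to -0.033 and -0.18 without G2/M-positive cells, and Tyms to -0.17 without cluster 2. With each library left out in turn they ranged from -0.093 and -0.057 (without the homozygous library) to 0.57 and 0.51 (without the heterozygous one). The cause was not tested. In the G2/M comparison 32 members were called in the main fit, beside 1071 of 10814 genes called higher. Without tumor A, B or C it was 32, 30 and 28 members, beside 970 of 10321, 900 of 10464 and 716 of 10239 genes. With cells thinned to 5000 UMIs 18 members and 270 of 10753 genes were called higher, and by edgeR 33 and 880 of 10814. Without cluster 2 it was 24 members and 325 of 10742 genes, and without the replicate block 27 and 268 of 10814. Calls over all genes thus moved between settings too. Mcm4 was called by edgeR (adjusted p = 0.0347). Without G2/M-positive cells the tumor mean of the summed level was 184 CPM and the homozygous value 124 CPM, and with hormone transcripts left out the tumor mean was 398 CPM and the islet values 336 and 296 CPM. The tumor mean share of cells with 6 or more members was 2.87%. It became 4.85% with 4 or more members, 1.55% at 3000 UMIs and 15.4% with no thinning, where the homozygous share was 1.12% and 2.03% with 4 members and no thinning. The genotype ratio was 0.891 with hormone transcripts left out. Depth limits Cdc6, Tk1, Exo1, Dscc1 and Uhrf1, each with under 80 UMIs in all alpha-like cells.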

Other observations

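A few cells outside the alpha lineage also held 6 or more of the 39 replication genes after thinning to 5000 UMIs. In homozygous islets these were 3 of 287 delta cells, the somatostatin cells, with up to 12 of the genes in a cell, and 2 of the 3 also held 2 or more G2/M genes. Of the cells the authors called Unknown2, 2 of the 7 deep enough to be counted did so, with up to 17 of the genes, and both held G2/M genes. Endothelial cells gave 1 of 67 in heterozygous and 1 of 17 in homozygous islets. No delta cell did so in heterozygous islets, 0 of 44, which allows a share of up to 6.82% by 3 counts of the total (exact upper limit 8.04%), so the delta cells of the genotypes could not be told apart at this depth.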
